A study of Arabidopsis thaliana with 3 samples.

Results

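In the compact genome of Arabidopsis thaliana the promoter of 1 gene often lies over the body of the gene next to it. The peaks described here are GRF5 DNA-binding peaks of that kind. Each one was annotated by the authors to a coding exon of 1 gene and to the promoter of another gene. Peaks in which any gene carried a promoter and a coding annotation at the same time were left out. The peaks had to meet this rule in both GRF5 libraries, in peaks matched one to one with an overlap of at least 50% of the shorter peak. The rule gave 3627 of the 19008 shared nuclear peaks, or 19.1% (95% Wilson interval 18.5 to 19.6%). The rule uses annotation and position only, and no measured value chose among the called peaks. The lists themselves hold only peaks called by the authors against the input, none with q above 0.05.

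GRF5 belongs to the growth-regulating factors, a plant family of transcription factors that work with GIF coactivators and promote cell proliferation in growing organs. A factor bound near the start of a gene can act on that gene, while the same stretch of DNA may also encode the protein of its neighbour. A peak over such a stretch therefore has at least 2 candidate genes, and peak position alone does not say which of them, if either, responds. In DNA affinity purification sequencing (DAP-seq), a purified factor is mixed with sheared genomic DNA, and the recovered fragments are sequenced and piled up into peaks.

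The 2 GRF5 libraries, replicates 1 and 2, were made with His-tagged GRF5 produced in Escherichia coli and recovered with an antibody against GRF5, and 1 input library was the control for both. The DNA, sheared to 200 to 500 bp, was root DNA of Col-0 plants, wild type, that were grown for 7 days and then kept on 0.2 mM nitrate for 3 days. The series text also speaks of chromatin immunoprecipitation under the same library names, but the libraries' own titles and protocols describe DAP-seq, and they are taken as given. The values therefore describe recovery of purified DNA, with no pull-down lacking GRF5 to set beside it and no expression data. The labels do not say whether protein and DNA were prepared separately for each library. With 2 libraries of 1 group and a shared input no test over samples was possible, and every comparison below is a description. The lists held 28349 nuclear peaks for replicate 1 and 27054 for replicate 2, with median summit pileups of 85 and 81 fragments.

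Fold enrichment is the authors' ratio of fragments piled up at the summit to the local background from the input. The peaks over a gene and its neighbour's promoter had medians of 1.84 (replicate 1) and 1.85 (replicate 2). All other shared peaks had a median of 1.90 in either library. As the mean of both libraries, the interquartile range of the class ran from 1.71 to 2.00, against 1.75 to 2.09 for the other shared peaks. The class thus had a slightly lower median than the other shared peaks, in each library. The log2 ratio between the libraries had an SD of 0.18 over these peaks and 0.19 over the others.

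Strong peaks were few. Of the class, 65 peaks (1.79%, interval 1.41 to 2.28%) reached 3-fold enrichment in both lists, beside 1.42% of all shared peaks. The intervals of the class and of the other shared peaks (1.33%, 1.16 to 1.52%) overlapped, and a share so near the background is not a result about the class. Among peaks with 1 promoter annotation and nothing else, 24 of 2794 (0.859%) reached 3-fold in both lists. Peaks over a promoter and coding exon of the same gene reached it in 22 of 812 cases (2.71%, 1.80 to 4.07%), and peaks over coding exons with no promoter in 112 of 4750 (2.36%, 1.96 to 2.83%). The medians ran in another order, with 1.84 for the class, 1.93 for 1 promoter only, 1.93 for promoter and own exon, and 1.86 for coding exon without promoter. The median of the class was nearest that of the peaks over coding exons without a promoter.

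**Figure D1:**
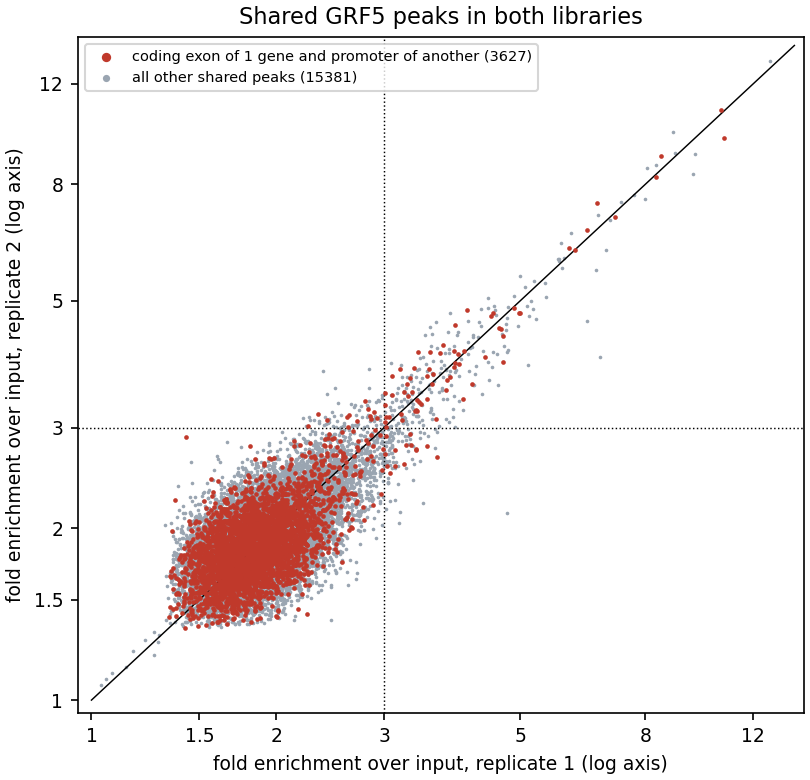
Fold enrichment over input of each shared peak in replicate 1 (x axis, log scale) and replicate 2 (y axis, log scale), with peaks over a gene and its neighbour's promoter in red, all other shared peaks in grey, dotted lines at 3-fold and the diagonal in black. Most red points lie between 1.4 and 2.5, and 65 lie beyond both dotted lines.

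**Figure D2:**
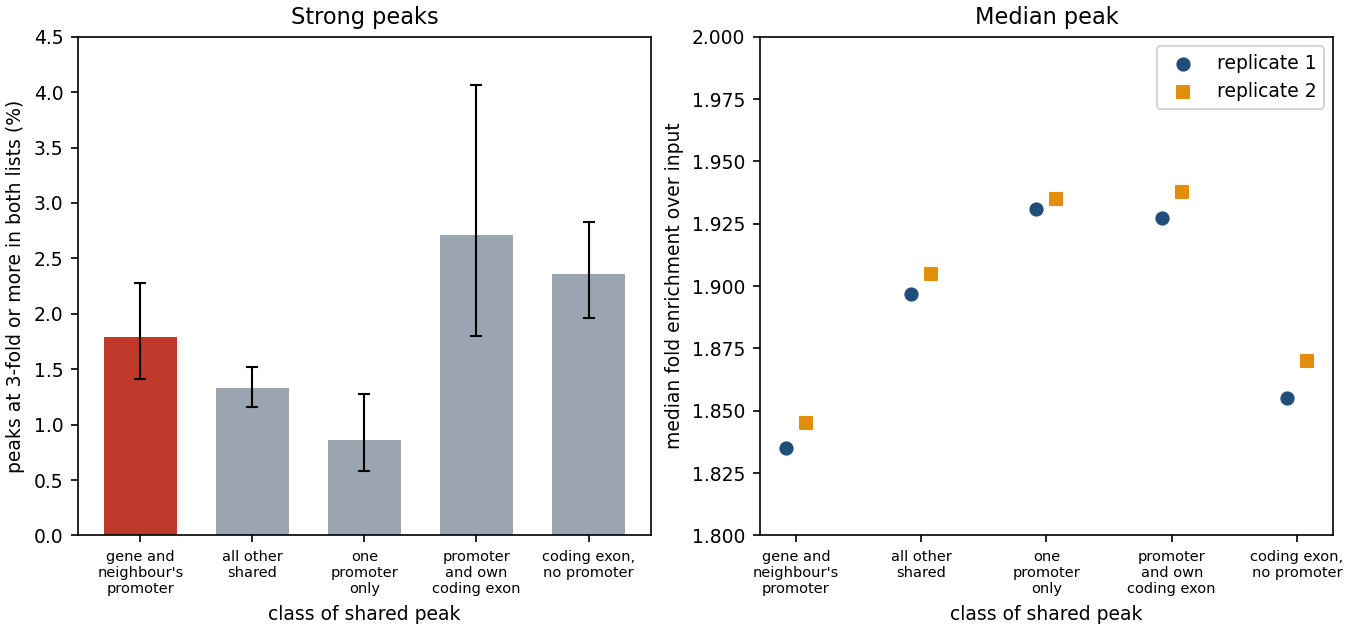
Left, share of peaks at 3-fold or more in both lists for 5 classes of shared peak (bars, percent) with 95% Wilson intervals that cover the counting of peaks only; right, the median fold enrichment of each class in replicate 1 (circles) and replicate 2 (squares) on an axis that starts at 1.8. The class over a gene and its neighbour's promoter has the lowest medians, 1.84 and 1.85, and a strong share of 1.79%.

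Ranked by mean fold enrichment, the class was unevenly spread over the shared peaks. It made up 23.7% (22.5 to 24.9%) of the weakest 25% of shared peaks, which reached up to 1.74-fold. Its share was 20.7% from the 25th to the 50th percentile, 18.2% from the 50th to the 75th, 13.6% from the 75th to the 90th percentile and 12.1% (10.2 to 14.3%) from the 90th to the 95th. It was 13.9% between the 95th and 99th percentiles and 24.1% (18.6 to 30.6%, 46 of 191 peaks) in the strongest 1%, which began at 3.40-fold. The share thus declined over most of the range and was again above the overall 19.1% at the top, where the interval still takes in that value.

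**Figure D3:**
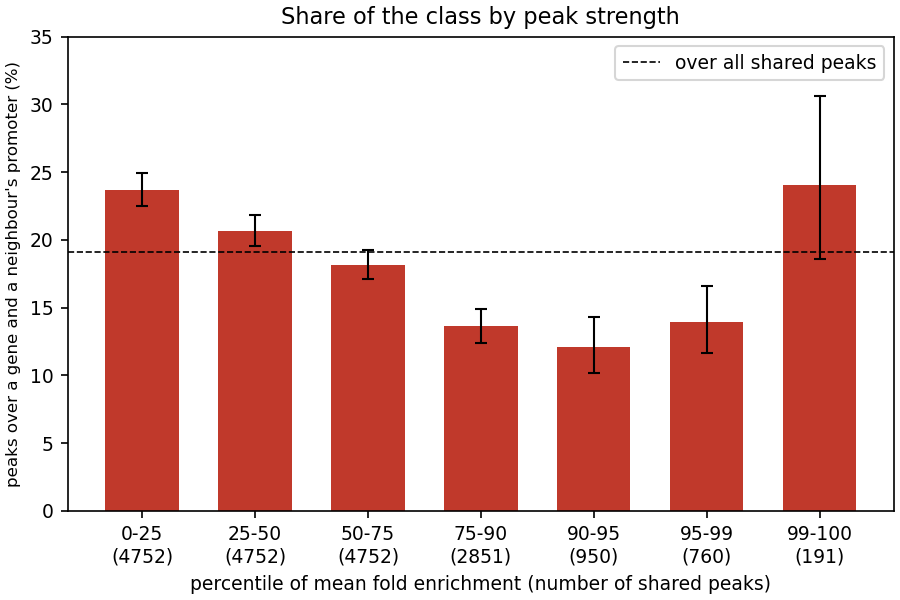
Share of peaks over a gene and its neighbour's promoter (bars, percent) among shared peaks grouped by percentile of mean fold enrichment, with 95% Wilson intervals for the counting of peaks and the number of shared peaks in parentheses. The dashed line is the 19.1% over all shared peaks; the lowest bar is 12.1% and the highest 24.1%.

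The strongest peak of the class was the runner-up among all 19008 shared peaks. It lay on chromosome 1 from 20707361 to 20709318 in replicate 1 and from 20707345 to 20707905 in replicate 2 (TAIR10, 1-based), over a coding exon of AT1G55460 and the promoter of AT1G55450. AT1G55460 encodes a Kin17-type DNA- and RNA-binding protein and AT1G55450 an S-adenosylmethionine-dependent methyltransferase. The fold enrichment was 10.6 in replicate 1 and 10.8 in replicate 2, with 493 and 468 fragments at the summit. The peak was 1958 bp wide in replicate 1 and 561 bp in replicate 2, yet the summits lay 1 bp apart, so the libraries differed in the extent of the peak and not in where it was highest.

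NF-YB3 carried the next strongest peak, on chromosome 4 from 8344606 to 8345125. NF-YB3 is a histone-fold protein of the NF-Y complex, which binds CCAAT boxes and promotes flowering. The peak had enrichment of 10.8 (replicate 1) and 9.66 (replicate 2), with 503 and 425 fragments, and its summits were 1 bp apart. The same peak was annotated to the promoters of AT4G14530, described as an agamous-like MADS-box gene, and of the non-coding genes AT4G14548 and AT4G06195. By the strand inferred for NF-YB3 and the side of each partner, AT4G14530 is divergent from NF-YB3 and both non-coding genes run in the direction of NF-YB3.

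RBP45B, which encodes an RNA-recognition-motif protein, had 8.49-fold and 8.97-fold enrichment in replicates 1 and 2 on chromosome 1 from 3916382 to 3917578. Its partners on the promoter side were AT1G11630, the transfer RNA gene AT1G11640 and AT1G11655. The peak over AT3G51050, an FG-GAP repeat gene, and the promoter of RTH reached 8.32-fold and 8.24-fold on chromosome 3 from 18954584 to 18955180. RTH is the homologue of RTE1, a regulator of ethylene receptor signalling, and the genes are divergent. The summits were at the same base for RBP45B and 2 bp apart for RTH.

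The fifth to ninth peaks lay between 6.0-fold and 7.41-fold in either library. AT2G01690, an ARM-repeat gene, with the promoter of AT2G01710, a DnaJ-type gene, had 7.14-fold and 7.02-fold enrichment on chromosome 2 from 312910 to 313732. AT3G59180, an FBD- and leucine-rich-repeat-type gene, with the promoter of the long non-coding gene AT3G09195, had 6.68-fold and 7.41-fold on chromosome 3 from 21881198 to 21881691. These peaks were as high in replicate 2 as in replicate 1 or nearly so, with summits no more than 5 bp apart. AT1G70620, described as cyclin-related, and the promoter of AT1G70630, a nucleotide-diphospho-sugar transferase gene in tandem with it, had 6.42-fold and 6.66-fold on chromosome 1 from 26628941 to 26629874. AT5G22340 and the divergent RIN1, a RuvB-like ATPase of the pontin type, shared a peak of 6.13-fold and 6.15-fold on chromosome 5 from 7395032 to 7396021. CKL4, a casein kinase 1-like kinase, with the promoter of the transposase-like gene AT4G28870 in tandem, had 6.0-fold and 6.18-fold on chromosome 4 from 14247664 to 14249096. CKL4, the ninth of the class, ranked 24 among all shared peaks.

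The other 11 of the 20 strongest peaks lay between 3.91-fold and 4.99-fold. TOC75-III, the protein import channel of the outer chloroplast envelope, and the kinase gene AT3G46760 had their promoters under a peak over AT3G46750, with 4.99-fold in replicate 1 and 4.77-fold in replicate 2. F2KP, which controls fructose-2,6-bisphosphate, and the telomere-capping gene STN1 shared a peak over the CHUP1-like gene AT1G07120 with 4.88-fold and 4.86-fold. CLPX, the ATPase subunit of the mitochondrial Clp protease, and MIR8181 shared one over the galactosyltransferase gene AT5G53340 with 4.98-fold and 4.76-fold. All 3 of these peaks thus touched promoters of more than 1 gene, and their values differed little between libraries.

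J8, a chloroplast DnaJ protein gene, had its promoter under a peak over AT1G80930, a MIF4G-domain gene, with 4.65-fold in replicate 1 and 4.47-fold in replicate 2. UGT73B1, a glycosyltransferase gene, had its promoter under a peak over the G-patch gene AT4G34140 with 4.61-fold and 4.48-fold. AT3G18060, a WD-40 gene, was on the promoter side of AT3G18050 at 4.52-fold and 4.76-fold. The descriptions of these partner genes name no role in common. AT3G09020 was on the promoter side of the kinase gene AT3G09010 at 4.48-fold and 4.71-fold. AT1G14570, a UBX-domain gene, was on that of the mitochondrial carrier gene AT1G14560 at 4.69-fold and 4.34-fold. AT2G41945 was on that of AT2G41960 at 4.09-fold and 4.82-fold.

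The last of the 20 were APE1 and ADA2A. APE1, a gene of photosynthetic acclimation, had 4.68-fold and 3.91-fold enrichment in replicates 1 and 2 on chromosome 5 from 15473458 to 15473895, with the promoters of the proteasome maturation factor gene AT5G38650 and of the kelch gene AT5G38670. ADA2A, a coactivator of histone acetyltransferase complexes, had 3.92-fold and 4.54-fold on chromosome 3 from 2470784 to 2471375, with the divergent exoribonuclease gene AT3G07750. ADA2A ranked 79 among all shared peaks. Over the 20 peaks the summits of the libraries lay at most 12 bp apart, and 4 of the 20 had no intron annotation.

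**Figure D4:**
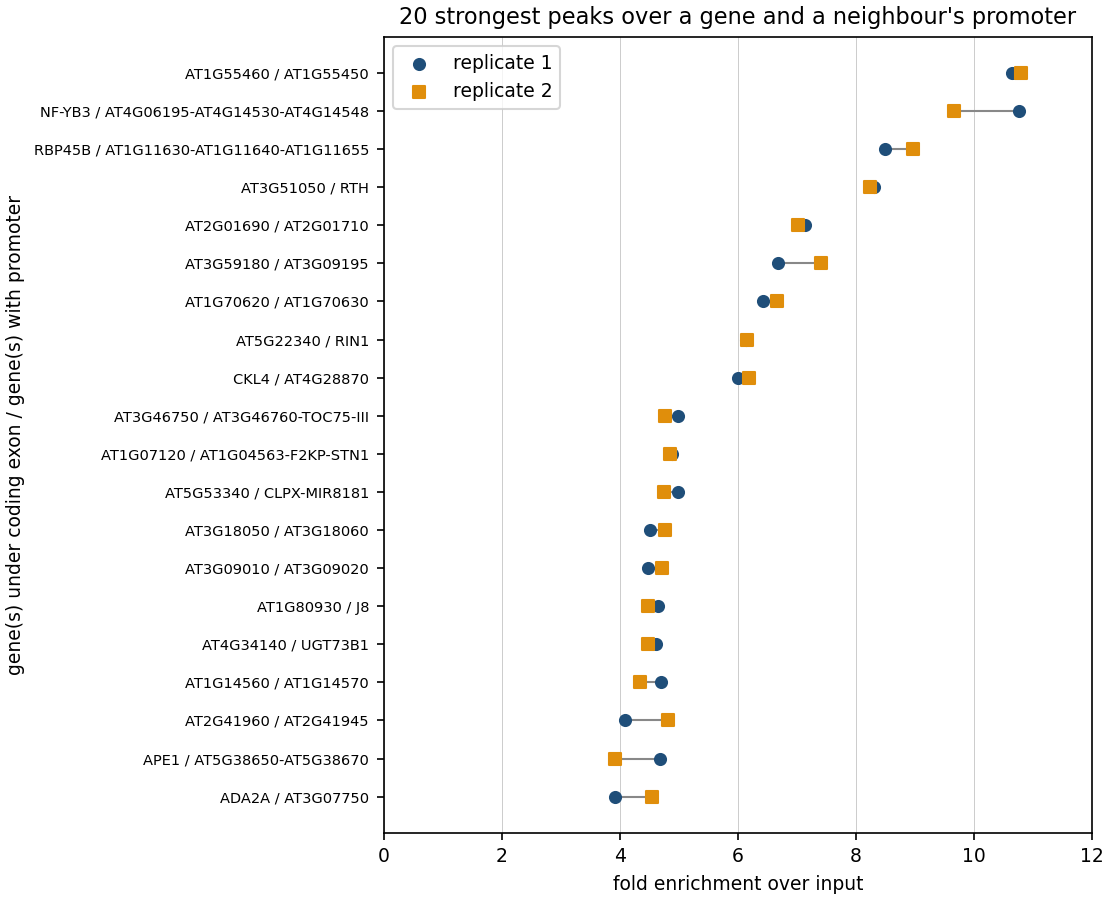
Fold enrichment over input (x axis) of the 20 strongest peaks over a gene and its neighbour's promoter, in replicate 1 (circles) and replicate 2 (squares), named by the gene under the coding exon and, after the slash, the gene or genes whose promoter is touched. The leading 9 peaks lie at about 6-fold or above in both libraries, and the other 11 lie below 5.

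The remaining 45 peaks at 3-fold or more in both lists had mean fold enrichments from 3.01 to 4.18. A few are named here after their values were seen. HAT3.1, a homeodomain gene, had its promoter under a peak over AT3G19515 at 4.04-fold in replicate 1 and 4.08-fold in replicate 2. GATA11 and GATA10, genes of GATA-type transcription factors, shared a peak at 3.90-fold and 3.83-fold, with GATA11 on the coding side. By gene order, 1 other protein-coding gene lies between GATA11 and GATA10. The promoter of CDC5, a MYB-related spliceosome and cell cycle factor, lay under a peak over U2A', a splicing factor gene, at 4.04-fold and 3.36-fold. SPL2, a gene of the SPL transcription factor family, had its promoter under a peak over RSH3 and TAFII21 at 3.39-fold and 3.35-fold. These 4 are examples only, and no gene function was counted over the 45 peaks. Of the 65 peaks, 64 had summits within 100 bp of each other, and the remaining one had summits 165 bp apart. Among peaks at 3-fold or more in both lists, the median summit distance was 3 bp in the class and 6 bp over all shared peaks. Close summits at strong peaks were thus not particular to the class. Every one of the 65 had a −log10 q of at least 24.9 in replicate 1 and 23.5 in replicate 2.

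Summit positions in the class were like those of other peaks over coding exons. Summits lay within 100 bp in 2244 peaks (61.9%, 60.3 to 63.4%), beside 65.2% of all shared peaks, and in 66.0% of the other shared peaks. The share was 62.8% in peaks over coding exons without a promoter. The median summit distance was 61 bp in the class, 57 bp in those exon peaks and 51 bp in all others. A −log10 q of at least 5 in both lists was met by 1402 peaks (38.7%), beside 44.2% of all shared peaks and 45.5% of the others. The class was therefore below the shared peaks as a whole by both measures.

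Width and local background of the class were close to those of other peaks over coding exons. Median widths were 493 bp in replicate 1 and 487 bp in replicate 2, against 470 and 456 bp for the other shared peaks. The background implied by pileup and fold enrichment was 47.2 fragments in replicate 1 and 44.3 in replicate 2, against 45.5 and 42.5. Median pileups were 88 and 83 fragments, against 87 and 82. Peaks over coding exons without a promoter had widths of 503 and 491 bp and the same implied background of 47.2 and 44.3 fragments, and peaks over a promoter and own exon had widths of 577.5 and 572.5 bp. With an intron in both lists, the class measured 517 and 508 bp, against 517 and 507 bp for other shared peaks. With no intron it measured 426 and 430 bp, against 438.5 and 425 bp. Neither trait was thus particular to the class. Over 4 classes of width, from narrow to wide, the class made up 16.9%, 18.7%, 19.8% and 20.9% of shared peaks, so its share was higher among wider peaks. In these classes of width it had median fold enrichments of 1.80, 1.79, 1.83 and 1.94, against 1.86, 1.85, 1.90 and 1.98 for other shared peaks. The median of the class was thus lower at each width.

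The genes involved were many and mostly touched once. Coding exons of 3414 genes were on the coding side, 12.4% of the 27444 nuclear protein-coding genes. On the promoter side were 4249 genes, of which 3256 were protein-coding. A coding gene carried 1 such peak in 3192 cases, 2 in 211 and 3 in 11. Genes with 3 included PKL, a CHD3-type chromatin remodeller (mean fold enrichments from 1.65 to 2.1), and GCN2, the kinase that phosphorylates a translation initiation factor under amino acid shortage (1.69 to 2.03). CALS1, a callose synthase gene, had 3 between 1.69 and 2.1, and SYN1, a meiotic cohesin gene, had 3 between 1.79 and 2.49. None of the peaks over these 4 genes reached 3-fold.

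The class supplied a large part of the genes with a promoter peak. Of 9670 protein-coding genes with any shared promoter peak, 2903 (30.0%, 29.1 to 30.9%) had it only through peaks that also covered a coding exon of another gene. Among shared peaks with no intron annotation in either list, this share was 10.1%. A single promoter gene was named at 2935 of the 3627 peaks, 2 genes at 595 and 3 or more at 97, with up to 7 at 1 peak. Peaks with 1 promoter gene and those with more had median fold enrichments of 1.84 and 1.85, so the number of candidates did not go with strength.

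The gene pairs under these peaks included tandem, divergent and overlapping neighbours. The strand of the coding gene was inferred from the side on which its own promoter peaks fall, with gene order from RefSeq assembly TAIR10.1. The promoter gene was taken to start on the side toward the coding gene, and its own strand was not looked up. Of 2249 gene pairs with an inferred coding-gene strand and no overlap, 1403 (62.4%, 60.4 to 64.4%) were in tandem, as AT1G70620 and AT1G70630. The other 846 (37.6%) were divergent, as AT3G51050 and RTH. A further 600 pairs were overlapping genes, as APE1 and its partners, and for 1611 the strand of the coding gene could not be inferred. The share over all neighbouring genes of the genome was not computed, and convergent pairs cannot enter by the rule, so the tandem share cannot be read as particular to the class. The median fold enrichment was 1.85 for tandem pairs, 1.83 for divergent pairs and 1.85 for overlapping ones. Peaks at 3-fold or more in both lists made up 2.07%, 1.77% and 1.75% of the peaks of these arrangements. With protein-coding promoter genes only, these shares were 1.79%, 1.78% and 0.958%, the last from 3 of 313 peaks. The median fold enrichment thus hardly varied with arrangement, and strong peaks were too few to compare closely.

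Nearly all pairs were direct neighbours, which the rule favours by construction, since a single peak must reach both genes. Among the 3407 pairs with both genes protein-coding, 3179 (93.3%) had no other protein-coding gene between them, 224 had 1 and 4 had more. The authors' annotation covers the whole peak and does not say on which gene the summit lies. The summit fell on that side of the peak's midpoint that is nearer the promoter gene in 1352 of 2723 peaks (49.7%, 47.8 to 51.5%), with the same count in replicate 1 and in replicate 2. In tandem pairs the share was 49.5% and 50.8% in the libraries, and in divergent pairs 50.2% and 48.4%. The summits thus leaned to neither side of the peak's midpoint. The midpoint is not a boundary between the genes, so these shares cannot say which gene the summits lie on.

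In 125 pairs of genes the arrangement was reciprocal, with 1 peak over an exon of the first gene and the promoter of the other, and a second peak the other way round. LAX3, an auxin influx carrier of lateral root emergence, formed such a pair with the thaumatin-type gene AT1G77700. The peak over the LAX3 exon, on chromosome 1 from 29202612 to 29202931, had enrichment of 2.08 (replicate 1) and 2.07 (replicate 2). The peak over the AT1G77700 exon and the LAX3 promoter, from 29204790 to 29205331, had 2.33-fold and 2.05-fold. These genes are divergent, so each gene's promoter reached into the other's exons in the annotation. RBR1, the retinoblastoma protein gene that restrains cell cycle entry, formed another such pair with the amino acid dehydrogenase gene AT3G12290. Its exon peak, on chromosome 3 from 3917852 to 3918298, had 1.71-fold and 2.03-fold, and its promoter peak, from 3919905 to 3920452, had 1.84-fold in each library. ATSUV3, an RNA helicase gene, and PBD2, a proteasome subunit gene, had 1.97-fold and 2.06-fold over the ATSUV3 exon and 2.15-fold and 2.50-fold over the PBD2 exon.

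Protein-coding genes made up 76.6% of the promoter-side genes, against 75.2% of all genes with a shared promoter peak. Non-coding genes and pseudogenes as a whole were thus no more frequent here, though single types differed. Of the 4249 promoter-side genes, 544 (12.8%) were long non-coding RNA genes, against 10.7% of all genes with a shared promoter peak. Transfer RNA genes made up 88 (2.07%, against 1.34%) and pseudogenes 79 (1.86%, against 6.11%). MicroRNA genes numbered 40 (0.941%, against 0.949%) and antisense RNA genes 18 (0.424%, against 0.163%). Only 21 antisense RNA genes had a shared promoter peak at all. Whether the position of such genes relative to other genes goes with their share here was not tested. At 629 peaks (17.3%) only non-coding genes or pseudogenes were on the promoter side. Their median fold enrichment was 1.86, and that of the 2998 peaks with a protein-coding promoter gene 1.84. MIR8181 was the microRNA gene at the strongest peak. The small nucleolar RNA gene AT1G05563 shared a peak over HMGB2, a high-mobility-group gene, with 3.05-fold and 3.13-fold on chromosome 1 from 7178110 to 7178908. The promoters of AT1G20691 and HMGB3 lay under the same peak.

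MicroRNA genes inside or beside protein-coding genes included members of the miR156 family, which represses SPL transcription factors that promote the change from juvenile to adult growth. These genes were picked out after their values were seen. The promoter of MIR156i lay under a peak over SPL4, with enrichment of 2.23 (replicate 1) and 1.59 (replicate 2), and that of MIR156j under a peak over SPL9 with 1.71-fold and 1.68-fold. SPL4 and SPL9 belong to the SPL family and overlap these microRNA genes in the annotation. MIR156b, divergent from AT4G30970, had 2.39-fold and 2.21-fold, and MIR158a, divergent from AT3G10750, had 2.30-fold and 2.09-fold. MIR156g, which overlaps AT2G19420, had 1.74-fold and 1.66-fold. The median over the peaks with microRNA promoters was 1.94. Apart from MIR8181, MIR5635a had the only peak of this kind at over 3-fold on the mean, with 2.79-fold and 3.33-fold over EFR, the receptor of bacterial elongation factor.

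Introns were common in the class. An intron row accompanied 79.5% of the peaks in each list, against 43.1% and 42.6% of the other shared peaks and 85.3% and 84.8% of peaks over coding exons without a promoter. The 2800 peaks with an intron in both lists had a median fold enrichment of 1.85 and the 661 with none 1.82. Strong peaks made up 1.79% of those with introns and 1.82% of those without. Chromosome 1 held 995 of the class among 4966 shared peaks, and chromosome 2, with the lowest share of the 5 (17.4%), held 536.

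Genes of nitrogen use and growth were looked up in 10 lists of 202 genes in all. On either side of the class were 21 of them (10.4%), beside 22.3% of all nuclear protein-coding genes. Of the 202, 10 were on the coding side and 14 on the promoter side, with 3 on both. These counts are descriptions, since genes and peaks are not replicates. GRF5 itself, BIN2, NRT1.1, NRT2.1 and the proteases UBP12 and UBP13 were on neither side. NRT1.1, the nitrate sensor and transporter, had 2 shared peaks, in promoter and intron, and NRT2.1 and GRF5 had 1 each, in the promoter. UBP12 had 4 and UBP13 had 3, in exons with introns and, for UBP12, the promoter; BIN2 had 2.

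Among the nitrogen genes, NIR1 had the strongest peak. NIR1 encodes nitrite reductase, which makes ammonium from nitrite in plastids. Its coding exon lay under a peak on chromosome 2 from 6812653 to 6812918 with enrichment of 2.47 (replicate 1) and 2.26 (replicate 2), with both summits at the same base. The other gene of that peak is AT2G15630, a pentatricopeptide-repeat gene in tandem. GLN1;4, a cytosolic glutamine synthetase gene, had its promoter under a peak over BGLU2 on chromosome 5 from 5426115 to 5426575, with 2.32-fold and 1.96-fold. ASN3, an asparagine synthetase gene, was on the promoter side of DOT3 with 2.05-fold and 1.63-fold, and GLN1;5 on that of AT1G48460 with 1.78-fold and 1.63-fold. For these 3 promoter genes the peak was the only shared promoter peak, and each was lower in replicate 2.

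Nitrate transport and signalling genes were few, at 4% and 4.17% of their lists, beside 22.3% of all nuclear protein-coding genes. The other lists ran from 4.17% (auxin and lateral root) to 22.2% (reference genes of quantitative PCR). A low share was thus not particular to the nitrate genes. Of 25 transport genes, NRT1.6, a seed nitrate transporter gene, was the single one, with its promoter under a peak over the kinase-related gene AT1G27070 on chromosome 1. The peak had enrichment of 1.68 (replicate 1) and 1.61 (replicate 2), and its summits were 527 bp apart. Of 24 signalling genes, CBL1 was the single one, a calcium sensor that works with CIPK kinases on nitrate and potassium transport. Its exon peak on chromosome 4 from 9817264 to 9817969 had 2.03-fold and 2.01-fold, with AT4G17616 and AT4G17612 on the promoter side. The values of CBL1 were thus alike in the libraries, whereas the NRT1.6 peak was not placed alike.

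Of the 27 brassinosteroid genes, 4 were in the class. BAK1, the co-receptor of BRI1, had its exon under a peak on chromosome 4 from 16089895 to 16090730, with enrichment of 1.94 (replicate 1) and 2.05 (replicate 2) and the divergent pectin-lyase-type gene AT4G33440. BEH2 and BEH4, homologues of the transcription factors BES1 and BZR1, were on the promoter side. BEH2 had 2.1-fold and 1.74-fold over AT4G36790, and BEH4 1.54-fold and 2.07-fold over AT1G78690. ROT3, a cytochrome P450 gene of brassinosteroid synthesis, had 1.5-fold and 1.79-fold over AT4G36390, with summits 510 bp apart. BEH2, BEH4 and ROT3 had no other shared promoter peak.

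Of 14 genes of the GRF, GIF and UBP list, 3 were in the class. GRF4 had its exon under a peak on chromosome 3 from 19617683 to 19618375, with enrichment of 1.68 (replicate 1) and 2.18 (replicate 2), and the tandem gene AT3G52905. GRF3 had 1.72-fold and 1.96-fold on chromosome 2 from 15272421 to 15273077, with the divergent gene AT2G36402. The summits of the GRF4 peak were 7 bp apart and those of the GRF3 peak 418 bp, so only the GRF4 peak had 1 position in both libraries. GIF3, a coactivator gene, had its only shared promoter peak over the DHHC zinc finger gene AT4G00840 on chromosome 4 from 355819 to 356761. That peak had 1.83-fold and 1.81-fold, and its summits lay 202 bp apart.

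The auxin, meristem and cell cycle lists added LAX3, BBM, CYCD3;1 and RBR1. BBM, an AP2-type gene of embryo and root stem cell identity, had its exon under a peak on chromosome 5 from 5743982 to 5744412, with enrichment of 2.07 (replicate 1) and 2.22 (replicate 2). Its partner AT5G02715 is in tandem. CYCD3;1, a cyclin of cell cycle entry, was on the promoter side of the overlapping gene AT4G34150 with 1.70-fold and 1.81-fold. The 19 photosynthesis genes added LHCA4 with 1.90-fold and 1.77-fold over AT3G47480 and LHCB4.1 with 1.81-fold and 1.57-fold over AIRP2, both antenna proteins and both on the promoter side.

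Among the 9 reference genes of quantitative PCR, PP2AA3 and TUB2 were in the class. PP2AA3, a scaffold subunit of protein phosphatase 2A, had 3 of these peaks. Its promoter lay under a peak over AT1G13340 with enrichment of 2.75 (replicate 1) and 2.52 (replicate 2), and its exons under peaks with 2.39-fold and 2.15-fold (promoter of AT1G13310) and 1.78-fold and 1.87-fold (promoter of AHP2). TUB2 had 2.54-fold and 2.84-fold on chromosome 5 from 25183397 to 25183821, with the promoter of TUB3. TUB2 and TUB3 are near-identical beta-tubulin genes, and the sources used here do not give how reads were split between them. The TUB2 peak and the promoter peak of PP2AA3 had the highest mean fold enrichments of all listed genes.

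**Figure D5:**
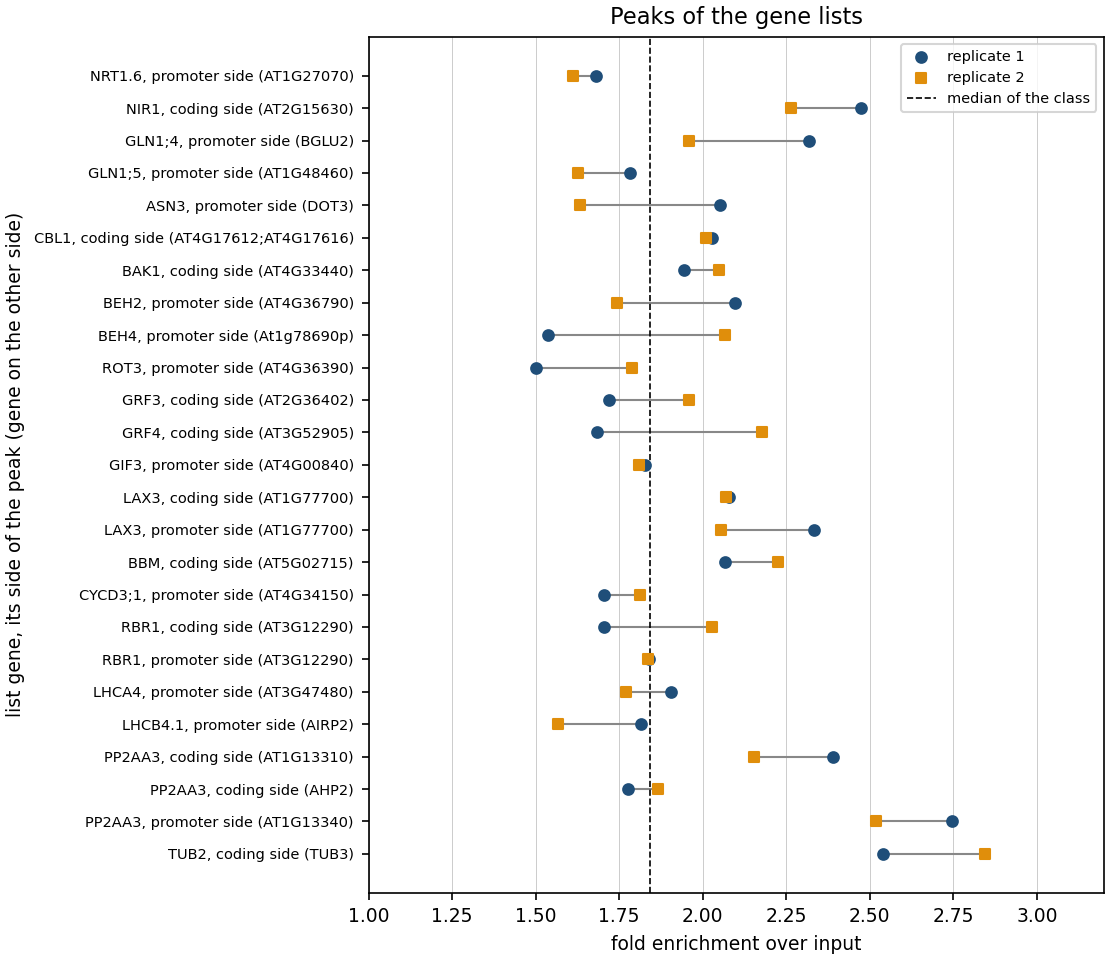
Fold enrichment over input (x axis, starting at 1) of the peaks with a listed gene on the coding or promoter side, in replicate 1 (circles) and replicate 2 (squares), with the partner gene in parentheses and the class median of 1.84 as a dashed line. TUB2 and PP2AA3 lie farthest to the right and no listed gene reaches 3-fold.

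The peaks that differed most between the libraries were weak in 1 of them. EMB3010, a gene of ribosomal protein S6e, had its promoter under a peak over the helicase gene AT5G10370 on chromosome 5 from 3262092 to 3262422. It had enrichment of 1.43 (replicate 1) and 2.89 (replicate 2), a log2 ratio of 1.02, with −log10 q of 1.52 and 12.5 and summits 225 bp apart. AT1G48430, a dihydroxyacetone kinase gene, with the promoter of AT1G48440, had 1.37-fold and 2.24-fold (log2 ratio 0.71). AT3G14100, an RNA-binding protein gene, with the promoter of AT3G02845, had 2.25-fold and 1.41-fold (log2 ratio -0.67). None of the 3 reached 3-fold in either library.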

How the data were processed

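Reads of 2 GRF5 libraries and 1 input library of DAP-seq were trimmed (Trimmomatic 0.39), aligned to TAIR10 (Bowtie2 2.4.6) and turned into peaks (MACS2 2.2.7.1) by the authors, per the submitters' processing notes. Each GRF5 library has its own list against the common input, per the file headers; a table of the input was not used here. The deposited pileup is a signal in fragments at the summit. The deposited fold enrichment is a ratio to local background, and significance is deposited as −log10 p and −log10 q per the file headers. Caller settings and promoter length are not given in the sources. No peak had q above 0.05.

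The deposited entries, 87571 for replicate 1 and 82807 for replicate 2, held 28427 and 27133 distinct positions (chromosome, start, end), and nuclear peaks were paired one to one, largest overlap first, at 50% or more of the shorter peak. The pairing was checked on simulated data. Implied background was (pileup + 1) / fold enrichment - 1, with the caller's usual pseudocount assumed. Wilson intervals (95%) cover counting of peaks only. All 27846 gene identifiers in nuclear peaks matched a RefSeq table of TAIR10.1, used for names, types and gene order. Gene descriptions are those of the deposited lists. Promoter sequences were not used here, so no motif was searched and no sequence is given. Software was matplotlib 3.10.9, pandas 2.3.3, scipy 1.17.1, numpy 2.4.6 and Python 3.11.15.

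Members and lists were chosen with earlier results of these data known, and the 10 lists were drawn up again by locus tag after the files were opened. Genes were named by rule: the 20 strongest peaks, up to 4 peaks per list, GRF5, BIN2, UBP12, UBP13, NRT1.1 and NRT2.1 always, and the 3 peaks that differed most between libraries. Other genes are named as examples, chosen after their values were seen. Alternatives changed the overlap, the gene rule, the q minimum, the summit distance, the intron rule and the list used.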

Additional observations from a re-analysis of the deposited data

How the results depend on the processing

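No test was run, since only 1 group has peak lists; no paired analysis was possible because the input has no peak list and the libraries form no second group. The planned search for the GRF core motif was not run, since promoter sequences were not used here. The count of 3627 peaks was within 1.5 times of itself at 25% overlap (3688), at 80% (3352), with the same genes required in both lists (3623) and with mixed genes barred across lists (3627). It was 1402 with −log10 q of at least 5, 661 without introns, 2244 with summits within 100 bp, and from 5775 to 6109 on single lists. The median fold enrichment of 1.84 was 1.85 at 80% overlap, 2.05 with the q minimum, 1.88 with near summits, 1.82 without introns, and from 1.78 to 1.80 on single lists. The 65 peaks at 3-fold became 12 without introns and 81 to 85 on single lists. The share of near summits, 61.9%, was 75.7% with the q minimum, 66.1% without introns and 100% by construction among near summits. The tandem share of 62.4% was 64.6% with near summits, 72.0% without introns and from 62.1 to 62.6% on single lists. The 21 listed genes became 10 with the q minimum, 5 without introns, and 33 to 36 on single lists. The share of genes with promoter peaks of this kind only, 30.0%, was 26.9% with the q minimum, 28.9% with near summits, 10.1% without introns and 31.2 to 31.5% on single lists, in alternatives chosen after seeing the data. Fewer peaks enter the stricter settings by construction; other causes were not tested. Depth was not varied; at the class median a summit held 88 and 83 fragments over an implied background of 47.2 and 44.3.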

Other observations

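Gene functions differed in frequency between the class and all genes with a shared peak, by the GO terms attached to each gene in the authors' lists. These terms were chosen after their values were seen and were not tested. DNA-binding transcription factor genes made up 3.53% (115) of the protein-coding genes on the promoter side, against 7.34% of all with a shared promoter peak. On the coding side they made up 3.78% (129), against 5.33% of genes with a shared coding exon peak. RNA binding genes made up 5.68% of the promoter side against 3.93%, chloroplast genes 9.77% against 7.32%, and mitochondrion genes 7.62% against 5.54%. Both kinds of gene occurred at strong peaks: the promoter side held TOC75-III, CLPX and J8, which encode organelle proteins, and also the MADS-box gene AT4G14530 and the homeodomain gene HAT3.1.

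Applied to a single list, the rule fitted 6109 of 28349 peaks (21.5%) in replicate 1 and 5775 of 27054 (21.3%) in replicate 2. Of these, 4079 (66.8%) and 4016 (69.5%) had a partner in the other list, against 67.1% and 70.3% of all peaks. Those without a partner, 2030 and 1759, had median fold enrichments of 1.68 and 1.70. One of them in replicate 1 reached 3-fold, at 3.61, and the highest in replicate 2 was 2.79.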
